A study of Homo sapiens with 18 samples.

Results

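The EGR and NR4A immediate early genes were followed through all probe sets annotated to EGR1, EGR2, EGR3, NR4A1, NR4A2 or NR4A3 alone. This gave 13 of the 54613 probe sets of the array and covered 5 of the 6 genes, out of 19775 genes with a probe set, with 3 probe sets each for EGR1, NR4A1, NR4A2 and NR4A3 and 1 for EGR3. No probe set was annotated to EGR2 alone, and EGR2 was not analysed here. All 13 probe sets passed the filter on low values, which asked for a signal above a floor of 32 on at least 3 of 18 arrays. A gene was represented by its brightest probe set, and the others are given beside it.

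RNA came from the human melanoma cell lines A375, WM2664 and SKMEL5, all grown in RPMI medium with 10% serum. A-485 is a small molecule that blocks the acetyltransferase activity of the related coactivators p300 and CBP, and DMSO is its solvent. Each line was treated with A-485 (labelled 3 mM, a unit not checked here) for 24 h or 6 h (1 array each), or with DMSO for 24 h or 6 h (2 arrays each). The study set sensitive beside resistant lines, and the labels used here do not say which line is which. Values are intensities of Affymetrix HG-U133 Plus 2.0 arrays after quantile scaling, and differences are log2, A-485 minus DMSO, ± SE from limma over the 30355 probe sets tested. A probe set was called at a Benjamini-Hochberg adjusted p under 0.05.

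Immediate early genes are transcribed within minutes of a growth factor or stress signal, without new protein being made first. The EGR proteins are zinc finger transcription factors, and growth factor signals reach EGR1 largely through ERK kinases, which act on ternary complex factors bound with SRF at CArG boxes. The NR4A proteins are orphan nuclear receptors that are regulated mainly by how much of them is made, and cyclic AMP signals reach their genes through CREB, a factor that recruits CBP and p300. In melanocytes, NR4A receptors are known as targets of the melanocortin receptor, which signals through cyclic AMP.

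The promoters of EGR1 and NR4A3 are shown because these genes moved in opposite directions under A-485 and hold the motifs of these routes in different numbers. The fall of NR4A3 was seen in SKMEL5 alone, and whether the motifs bear on the response was not tested. Each is the 250 bases before the annotated start, plus strand, from RefSeq on GRCh38.p14. Capitals mark CArG boxes, matched as CC, then 6 letters that are A or T, then GG, and TGACG on either strand (CGTCA on the strand shown), the core of the cyclic AMP response element.
EGR1, chr5:138465229-138465478: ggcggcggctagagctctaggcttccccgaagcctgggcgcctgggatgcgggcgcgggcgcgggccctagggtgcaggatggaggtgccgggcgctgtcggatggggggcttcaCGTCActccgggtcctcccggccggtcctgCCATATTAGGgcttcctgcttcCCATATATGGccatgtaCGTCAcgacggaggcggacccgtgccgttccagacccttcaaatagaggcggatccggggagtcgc
NR4A3, chr9:99821635-99821884: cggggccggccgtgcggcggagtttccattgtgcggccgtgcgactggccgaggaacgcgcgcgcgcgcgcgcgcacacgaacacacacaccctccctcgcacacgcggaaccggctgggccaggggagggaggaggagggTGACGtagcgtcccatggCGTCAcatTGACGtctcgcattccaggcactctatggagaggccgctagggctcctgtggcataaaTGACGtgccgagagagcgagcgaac

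The EGR1 window held 2 CArG boxes and 2 TGACG matches, and the NR4A3 window held no CArG box and 4 TGACG matches. Among 35116 such windows of all genes, 1.16% held a CArG box and 0.0313% held 2 or more. A TGACG was found in 21.2% of the windows, 2 or more in 4.76% and 4 or more in 0.236%. In the 2 windows of NR4A1 neither motif was found. An EGR2 window held 1 CArG box and 2 TGACG matches, and the other windows of EGR2 held neither. No window was available for NR4A2, which rose with A-485, or for EGR3, which fell. The genes shown therefore do not stand for the family. A match is a string of letters and not a measured binding site.

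In the culture check, 7 melanocyte lineage markers were on the array. Their summed intensity ran from 392 to 1943 in A375, from 18285 to 34746 in WM2664 and from 37595 to 48741 in SKMEL5. The markers MLANA, TYR and TYRP1 lay at the floor on all A375 arrays but 1, DMSO 6 h replicate 1. By a rule set after the values were seen, 3 DMSO arrays carried a trace of another line's transcripts. These were A375 6 h replicate 1 and WM2664 6 h replicate 1, with 0.923% and 1.45% of the SKMEL5 level of genes bright in that line, and WM2664 24 h replicate 2, with 0.795% of the A375 level. The cut was 0.5%, and the values are medians over 9, 4 and 11 probe sets in this order. The trace is thus an estimate from few genes, and later mentions of these 3 arrays rest on it. Of 4 leukocyte markers, 1 or 2 lay above the floor in A375 and 0 in WM2664 and SKMEL5. Of 5 fibroblast markers 2 to 4 lay above it, and of 5 keratinocyte markers 1 or 2. Whether replicates were separate cultures is not stated in the labels used here, and p-values therefore reflect only the spread among these arrays, which may be technical. Each A-485 array was assumed to vary like the DMSO pairs.

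EGR1, a growth factor-induced activator, rose with A-485 in every line at both times. In A375 it had 742 on the A-485 array at 24 h, against 228 and 250 with DMSO, and 1320 at 6 h, against 285 and 311. In WM2664 it had 2822 with A-485 at 24 h, against 382 and 404 with DMSO, and 2722 at 6 h, against 332 and 284. In SKMEL5 it had 1568 with A-485 at 24 h, against 516 and 447 with DMSO, and 2568 at 6 h, against 518 and 490. Every A-485 array thus lay above every DMSO array of the 3 lines and the lowest of them was that of A375 at 24 h. In bulk RNA, a change in how many cells carry a transcript and a change in its amount per cell cannot be told apart.

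The EGR1 differences were 1.64 ± 0.13 at 24 h and 2.15 ± 0.13 at 6 h in A375 (adjusted p 0.000172 and 5.04e-05). In WM2664 they were 2.84 and 3.15 with the same SE (adjusted p 7.46e-06 and 6.22e-06), which is 7.18-fold and 8.87-fold. In SKMEL5 they were 1.71 and 2.35 (adjusted p 7.04e-05 and 3.96e-05). Averaged over the 3 lines, the EGR1 difference was 2.06 ± 0.08 at 24 h and 2.55 ± 0.08 at 6 h (adjusted p 1.53e-06 and 7.69e-07). Ranked from the highest difference among the 13341 genes tested, as a description, EGR1 stood at 1 in A375, 1 in WM2664 and 3 in SKMEL5 at 6 h. At 24 h it stood at 8, 4 and 34 in these lines.

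**Figure D1:**
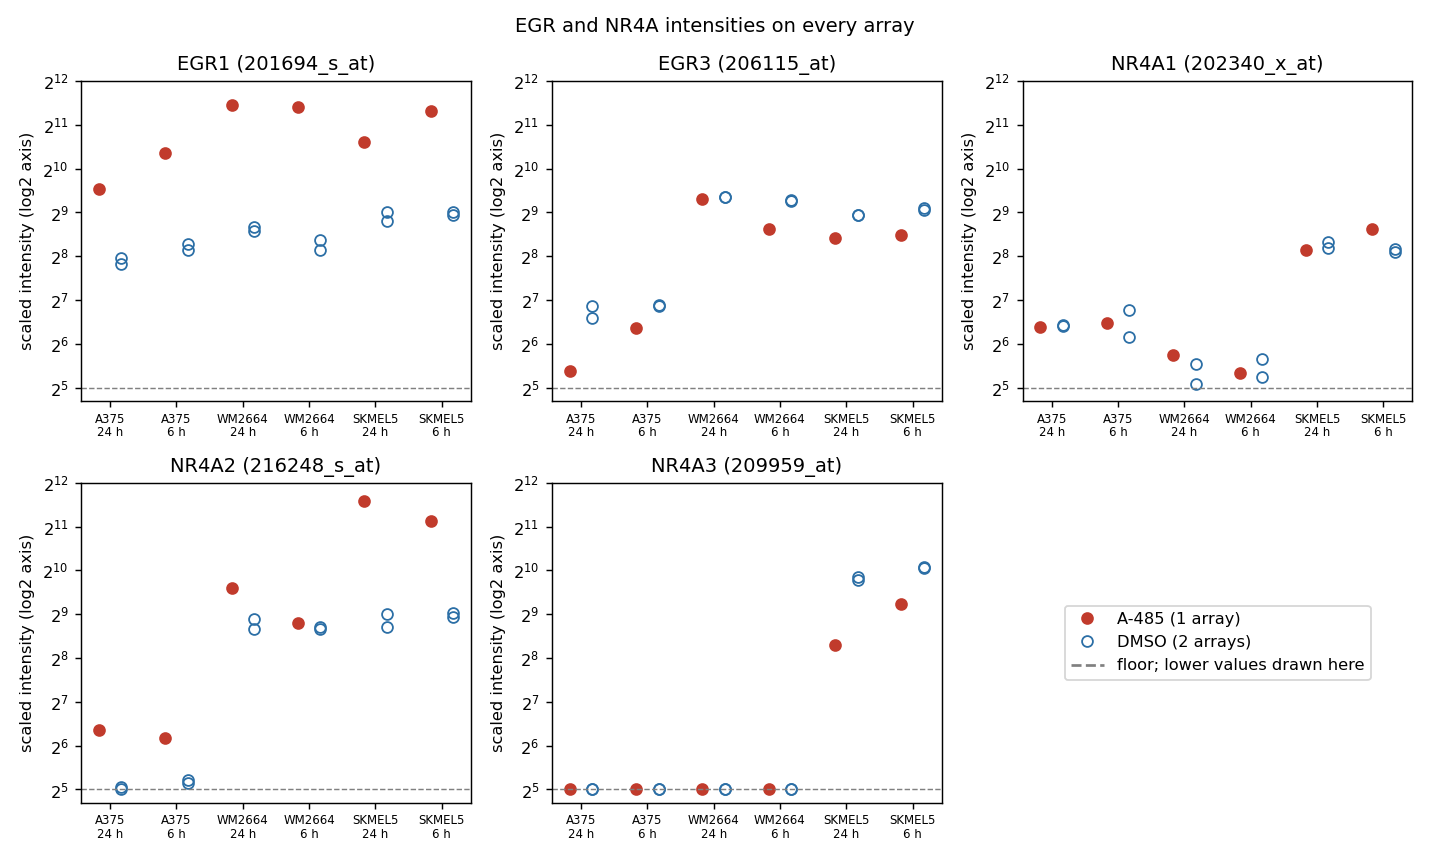
Scaled intensity (log2 axis) of each gene's brightest probe set on all 18 arrays, by line and time; filled points are the single A-485 arrays, open points the 2 DMSO arrays, and the dashed line is the floor of 32, at which lower values are drawn. All EGR1 A-485 points lie above all DMSO points, EGR3 A-485 points lie below their DMSO pairs, and NR4A3 is above the floor in SKMEL5 only.

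The other EGR1 probe sets gave the same direction in 6 of 6 line and time pairs, each with its A-485 array above both DMSO arrays. Probe set 227404_s_at had 3660 with A-485 in WM2664 at 24 h, against 310 and 263 with DMSO, and 572 with A-485 in A375 at 24 h, against 148 and 176. Probe set 201693_s_at was dimmer, with 760 with A-485 in SKMEL5 at 6 h, against 124 and 115 with DMSO, and 117 with A-485 in A375 at 24 h, against 46.2 and 49.0. Their differences departed from those of the brightest probe set by 0.34 and 0.32 on average. In WM2664 at 24 h they were larger, at 3.68 and 3.75, and all 3 EGR1 probe sets were called in each line at each time.

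EGR3, a close relative that calcium signals induce in lymphocytes, moved the other way. In A375 it had 41.7 with A-485 at 24 h, against 97.2 and 117 with DMSO, and 82.1 at 6 h, against 118 and 117. In WM2664 it had 629 with A-485 at 24 h, against 650 and 656 with DMSO, and 393 at 6 h, against 617 and 627. In SKMEL5 it had 341 with A-485 at 24 h, against 488 and 494 with DMSO, and 358 at 6 h, against 529 and 547. The A-485 array lay below both of its DMSO arrays in 6 of 6 pairs, by a narrow margin in WM2664 at 24 h.

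The EGR3 difference was -1.36 ± 0.10 in A375 at 24 h (adjusted p 0.000145) and -0.52 at 6 h (adjusted p 0.0213). In WM2664 it was -0.05 at 24 h, which was not called (adjusted p 0.847, 95% interval -0.30 to 0.19), and -0.66 at 6 h (adjusted p 0.00375). In SKMEL5 it was -0.53 at 24 h and -0.59 at 6 h (adjusted p 0.00757 and 0.00834). Averaged over lines it was -0.65 ± 0.06 at 24 h and -0.59 ± 0.06 at 6 h (adjusted p 0.000122 and 0.000285). The 24 h mean was -0.291 without the A375 A-485 array and -0.943 without that of WM2664, and was called in both cases. Without the 3 arrays that carried another line's transcripts the 6 h differences were -0.51, -0.67 and -0.59 in A375, WM2664 and SKMEL5, and the call ended in each (adjusted p 0.175, 0.0601 and 0.0703). The SKMEL5 call at 24 h ended too, at -0.53. None of the 3 arrays left out was of SKMEL5, so its differences were unchanged and only the estimated spread moved. The A375 call at 6 h also ended without either of its DMSO arrays, at -0.51 without replicate 1 and -0.53 without replicate 2. On the intensities as deposited the 6 h differences were -0.49, -0.14 and -0.21 and were not called, nor was the 24 h difference in SKMEL5, at -0.525 (adjusted p 0.235), which also lost its call on the 9 arrays of 24 h alone (adjusted p 0.0573). There the median of 17307 probe sets above the floor on every array moved by 0.10 in A375, 0.52 in WM2664 and 0.38 in SKMEL5, and relative to that shift EGR3 stood at -0.59, -0.66 and -0.59.

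NR4A2 (Nurr1), an orphan receptor best known for its role in dopamine neurons, rose in most pairs. In SKMEL5 it had 3078 with A-485 at 24 h, against 421 and 515 with DMSO, and 2238 at 6 h, against 525 and 489. In WM2664 it had 772 with A-485 at 24 h, against 405 and 472 with DMSO, and 446 at 6 h, against 421 and 408. In A375 it was dim, with 82.1 with A-485 at 24 h, against 33.2 and 19.0 with DMSO, and 72.5 at 6 h, against 37.1 and 35.4. The brightest probe set placed the A-485 array above both DMSO arrays in 6 of 6 pairs, and SKMEL5 stood apart by the height of its A-485 arrays.

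The NR4A2 difference was 2.73 ± 0.14 in SKMEL5 at 24 h and 2.14 ± 0.14 at 6 h (adjusted p 7.67e-06 and 6.29e-05), which is 6.61-fold and 4.41-fold. In WM2664 it was 0.82 at 24 h (adjusted p 0.00366) and 0.11 at 6 h, which was not called (adjusted p 0.725, 95% interval -0.21 to 0.42). With a floor of 16 the 24 h call in WM2664 ended at the same size (adjusted p 0.102). In A375 it was 1.33 and 1.00 (adjusted p 0.000605 and 0.00324), sizes that are not exact because the DMSO arrays lay near or below the floor. With a floor of 64 the A375 differences were 0.36 and 0.18 and were not called. The A375 call at 6 h also ended with a floor of 16, at 1.00 (adjusted p 0.11), and on the intensities as deposited, at 0.997 (adjusted p 0.069). It was lost too without the 3 arrays that carried another line's transcripts, at 1.04. Averaged over lines it was 1.63 ± 0.08 at 24 h and 1.08 ± 0.08 at 6 h (adjusted p 4.89e-06 and 5.20e-05). Without the SKMEL5 A-485 array the mean was 1.08 at 24 h and 0.55 at 6 h, and both remained called.

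Probe set 204622_x_at of NR4A2 had 2328 with A-485 in SKMEL5 at 24 h, against 352 and 370 with DMSO, and 630 with A-485 in WM2664 at 24 h, against 341 and 377. In A375 its 4 DMSO arrays lay below the floor, so that its A-485 arrays were at least 1.91-fold higher at 24 h and at least 2.19-fold higher at 6 h. Probe set 204621_s_at had 1575 with A-485 in SKMEL5 at 24 h, against 204 and 161 with DMSO, and was not called in A375. The 3 probe sets differed in sign in WM2664 at 6 h, at 0.11, -0.13 and -0.26, and none of these was called (adjusted p 0.725, 0.354 and 0.585).

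**Figure D2:**
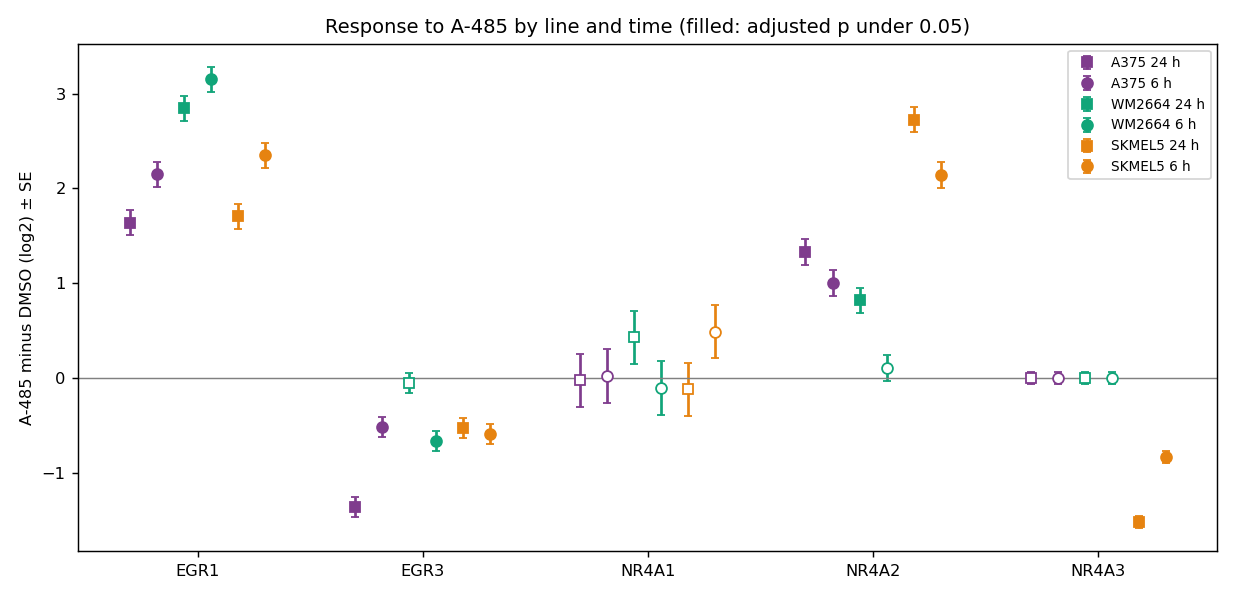
Difference in log2 intensity, A-485 minus DMSO, with SE bars, for each gene's brightest probe set by line (colour) and time (squares 24 h, circles 6 h); filled symbols were called. EGR1 runs from 1.64 to 3.15 and EGR3 from -1.36 to -0.05, while NR4A2 spans 0.11 to 2.73 and NR4A3 leaves 0 in SKMEL5 only.

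NR4A3 (NOR1), the third receptor of the family, was above the floor in SKMEL5 alone. There it had 316 with A-485 at 24 h, against 923 and 882 with DMSO, and 602 at 6 h, against 1074 and 1068. On all A375 and WM2664 arrays it lay below the floor with either treatment, so a fall could not be seen in those lines. Both SKMEL5 A-485 arrays lay below all 4 DMSO arrays of the line, and the 24 h array was the lower.

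The NR4A3 difference in SKMEL5 was -1.51 ± 0.06 at 24 h and -0.83 ± 0.06 at 6 h (adjusted p 3.08e-06 and 0.000154), opposite in sign to NR4A2 on the same arrays. The DMSO arrays of A375 and WM2664 were all set to the floor and added no spread to the SE. SE and p of NR4A3, here and below, are therefore likely too small. The 6 h call ended on the intensities as deposited, at -0.48 (adjusted p 0.18), where the shift of all probe sets was 0.38 and NR4A3 relative to it stood at -0.87. Probe set 207978_s_at agreed within 0.07 with the brightest one and had 144 with A-485 at 24 h, against 394 and 473 with DMSO, and 270 at 6 h, against 491 and 489. The dim probe set 216979_at had 29.2 with A-485 at 24 h, against 33.0 and 42.0 with DMSO, and 33.5 at 6 h, against 57.4 and 57.4. The means over lines, -0.50 and -0.28, rest on SKMEL5 and were 0 without its A-485 array.

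NR4A1 (Nur77), the receptor that T cell activation and growth factors induce, was not called in any line at either time when all arrays were used. In A375 it had 84.2 with A-485 at 24 h, against 85.1 and 85.9 with DMSO, and 89.5 at 6 h, against 110 and 71.0. In WM2664 it had 53.8 with A-485 at 24 h, against 46.8 and 34.1 with DMSO, and 40.6 at 6 h, against 50.1 and 37.9. In SKMEL5 it had 284 with A-485 at 24 h, against 323 and 294 with DMSO, and 393 at 6 h, against 287 and 273. The A-485 array lay above both DMSO arrays in 2 pairs, below both in 2 and between them in the others.

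The 6 NR4A1 differences ran from -0.12 to 0.49 with an SE of 0.28, and the lowest unadjusted p in limma was 0.121. Averaged over lines it was 0.10 ± 0.16 at 24 h (95% interval -0.28 to 0.47) and 0.14 ± 0.16 at 6 h (95% interval -0.24 to 0.51). In a single line the upper 95% bounds reached 1.14. Without the 3 arrays that carried another line's transcripts the 6 h mean was 0.31 and the SKMEL5 difference at 6 h was 0.49, and both were called. That SKMEL5 difference was the same as with all arrays, since none of the 3 was of SKMEL5, and only the estimated spread moved. Its other probe sets were dim, above the floor on 8 and 3 arrays.

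**Figure D3:**
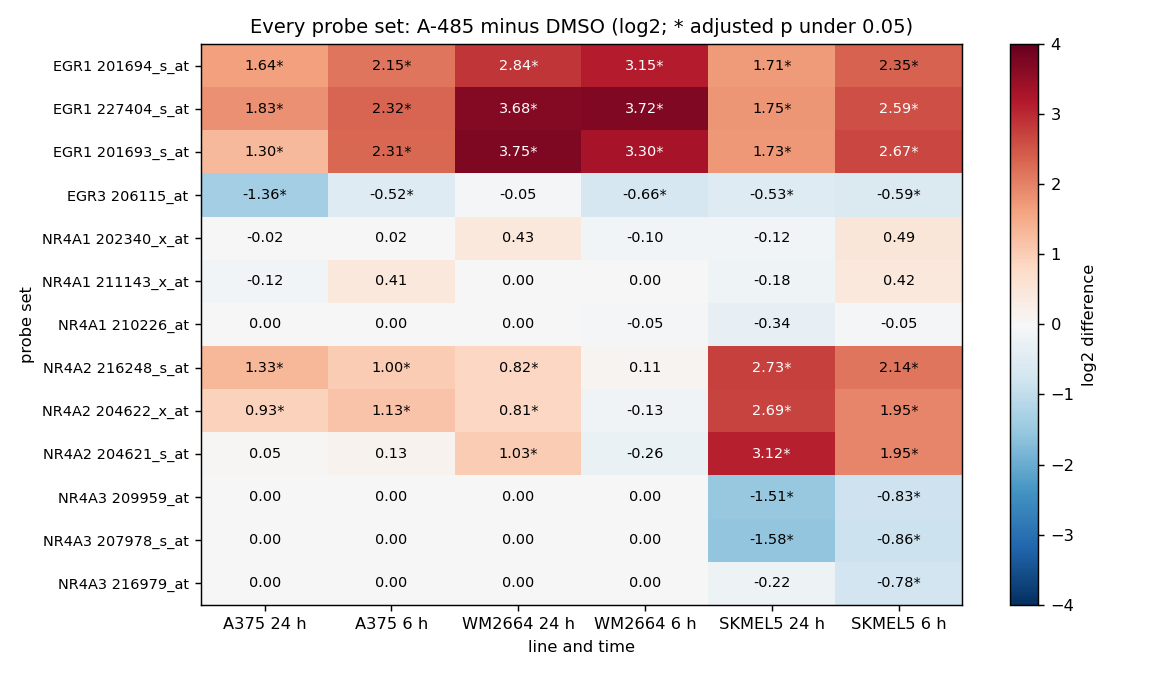
All 13 probe sets (down the page) by line and time, as log2 difference of A-485 minus DMSO, red for higher and blue for lower with A-485; an asterisk marks an adjusted p under 0.05. The 3 EGR1 probe sets are positive throughout, and the probe sets of NR4A2 and NR4A3 have opposite signs in SKMEL5.

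Counted by probe set, 5 of 13 rose and 1 fell in A375 at 24 h, where 12.2% of all probe sets tested were called, and 5 rose and 1 fell at 6 h, against 8.59%. In WM2664 6 rose and 0 fell at 24 h, against 25.3%, and 3 rose and 1 fell at 6 h, against 19.6%. In SKMEL5 6 rose and 3 fell at 24 h, against 27.7%, and 6 rose and 4 fell at 6 h, against 16%. For the mean over lines 6 rose and 3 fell at 24 h and 6 rose and 4 fell at 6 h, against 38.8% and 30.7%. The median difference of the 13 probe sets in that mean was 0.10 at 24 h and 0.28 at 6 h, where all probe sets had a median of 0.02 at both times. The rises were of EGR1 and NR4A2, and the falls were of EGR3 and NR4A3.

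The response was then compared between the times. The mean EGR1 response was smaller at 24 h than at 6 h, by -0.49 ± 0.11 (adjusted p 0.0239), and the single lines gave -0.51, -0.30 and -0.64 in A375, WM2664 and SKMEL5, none of them called. That call ended without an A-485 array of A375, at -0.47, or of SKMEL5, at -0.41, whichever time was left out. The mean NR4A2 response was larger at 24 h, by 0.54 ± 0.11 (adjusted p 0.0177). That call ended without an A-485 array of WM2664, at 0.46, or of SKMEL5, at 0.52. Both calls also ended without the 3 arrays that carried another line's transcripts, at -0.49 and 0.56 (adjusted p 0.0719 and 0.0778). On the intensities as deposited the values were -0.658 and 0.337 and were not called (adjusted p 0.212 and 0.383), and with a floor of 16 the NR4A2 call ended (adjusted p 0.151).

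Probe set 204622_x_at of NR4A2 was called within lines, with a 24 h response that was larger by 0.94 ± 0.12 in WM2664 and by 0.74 ± 0.12 in SKMEL5 (adjusted p 0.00461 and 0.00788). The fall of NR4A3 in SKMEL5 was deeper at 24 h by -0.68 ± 0.09 (adjusted p 0.0033), and was -1.05 and not called on the intensities as deposited (adjusted p 0.128). The fall of EGR3 in A375 was deeper at 24 h by -0.84 ± 0.15 (adjusted p 0.0342), where the A-485 array lay near the floor, and with a floor of 64 it was -0.223 (adjusted p 0.537). In WM2664 the EGR3 difference between the times was 0.61 ± 0.15, which was not called (adjusted p 0.0552) but was with a floor of 64 (adjusted p 0.0293). The A375 EGR3 call ended without any 1 of 10 DMSO arrays, all but the A375 24 h pair, with values from -0.85 to -0.83. Across the 13 probe sets the 24 h response was higher for 0 and lower for 1 in A375, where 1.93% of all probe sets were called. It was higher for 1 and lower for 0 in WM2664, against 6.06%, and higher for 1 and lower for 2 in SKMEL5, against 8.19%. For the mean over lines 3 were higher and 2 lower, against 12.8%.

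The lines differed in the size of the response. The NR4A2 response was smaller in WM2664 than in SKMEL5 by -1.91 ± 0.19 at 24 h and by -2.04 ± 0.19 at 6 h (adjusted p 0.000848 and 0.00138). The EGR1 response ran the other way, larger in WM2664 than in SKMEL5 by 1.14 ± 0.19 at 24 h (adjusted p 0.00786), with 0.80 ± 0.19 at 6 h not called (adjusted p 0.0662). On the intensities as deposited these calls ended, at -1.53 and -1.83 for NR4A2 (adjusted p 0.0549 and 0.064) and at 1.44 for EGR1 (adjusted p 0.156). With a floor of 16 the NR4A2 call at 6 h was lost as well, at -2.04 (adjusted p 0.0709). Between WM2664 and SKMEL5, 5 probe sets were higher and 3 lower at 24 h, where 9.59% of all probe sets were called, and 2 were higher and 3 lower at 6 h, against 3.49%. The NR4A3 probe sets count among the higher ones because they could not fall in WM2664.

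Set against the mean of the other lines, A375 had an EGR3 response of -1.07 ± 0.13 at 24 h (adjusted p 0.00111) and of 0.11 ± 0.13 at 6 h, which was not called. Its EGR1 response was -0.64 ± 0.16 at 24 h (adjusted p 0.0312) and -0.60 ± 0.16 at 6 h, which was not called (adjusted p 0.0648). The EGR1 call at 24 h ended without the WM2664 A-485 array, at -0.07, which compares A375 with SKMEL5 alone. The call was lost too without WM2664 DMSO replicate 1, at -0.62, and without A375 DMSO replicate 2, at -0.57. It also ended with 75th percentile scaling, on the intensities as deposited, with a floor of 16, with no filter, on the arrays of 24 h alone and without the 3 arrays that carried another line's transcripts, with values from -0.723 to -0.56. The 6 h value was called with a floor of 64 (adjusted p 0.0392), with an intensity trend (adjusted p 0.0459) and with 1 probe set a gene (adjusted p 0.048), and was -1.0 without the SKMEL5 A-485 array and -0.658 without WM2664 DMSO replicate 1, both called. For NR4A2 the A375 value was -0.44 at 24 h (adjusted p 0.117) and -0.12 at 6 h (adjusted p 0.782), but it depended on the floor, near which NR4A2 lay in A375. With a floor of 64 it was -1.41 and -0.945, both called (adjusted p 0.000451 and 0.00615). At 24 h it was called without the WM2664 A-485 array, at -1.39, and without SKMEL5 DMSO replicate 2, at -0.513, and was 0.513 without the SKMEL5 A-485 array, which was not called. At 6 h it was called without the WM2664 A-485 array, at -1.14, and with the opposite sign without the SKMEL5 one, at 0.895. Without the A-485 array of WM2664 or SKMEL5, A375 is compared with the remaining line alone. In all, 2 probe sets were higher and 6 lower in A375 at 24 h, where 17.2% of all probe sets were called, and 1 was higher and 0 lower at 6 h, against 7.91%. The higher ones were NR4A3 probe sets, which could not fall in A375.

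The lines also differed in their levels under DMSO. EGR3 averaged 112 ± 10.1 in A375, 638 ± 18.4 in WM2664 and 515 ± 28.0 in SKMEL5 (SD, n = 4 arrays each, both times together), with no overlap between lines. A375 was lower than the other lines by -2.35 ± 0.05 (adjusted p 3.53e-09), and WM2664 was higher than SKMEL5 by 0.31 ± 0.06 (adjusted p 0.00242). That call ended on the intensities as deposited, at 0.169 (adjusted p 0.352), and without the 3 arrays that carried another line's transcripts, at 0.313 (adjusted p 0.0515). NR4A2 averaged 31.2 ± 8.25 in A375, 427 ± 31.0 in WM2664 and 487 ± 47.1 in SKMEL5. A375 was lower by -3.73 (adjusted p 1.12e-09), a size that is not exact because its arrays lay near or below the floor, and WM2664 and SKMEL5, whose arrays overlapped, differed by -0.19, which was not called (adjusted p 0.0701).

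NR4A1 averaged 87.9 ± 16 in A375, 42.2 ± 7.48 in WM2664 and 294 ± 21.3 in SKMEL5, with no overlap between lines. WM2664 was lower than SKMEL5 by -2.82 ± 0.16 (adjusted p 1.65e-06), and A375 stood at -0.35 from the mean of the others (adjusted p 0.0550). NR4A3 averaged 987 ± 99.0 in SKMEL5 and was below the floor in the other lines, so that WM2664 was at least 30.7-fold lower when its arrays are put at the floor. That probe set passed the filter through SKMEL5 alone, so it had to differ between the lines and no p is given. EGR1 averaged 268 ± 37.1 in A375, 350 ± 53.7 in WM2664 and 493 ± 33.2 in SKMEL5, and the arrays of A375 and WM2664 overlapped. A375 was lower in EGR1 by -0.63 ± 0.07 (adjusted p 3.94e-05), and WM2664 was lower than SKMEL5 by -0.50 ± 0.08 (adjusted p 0.000554). Of the 13 probe sets, 0 were higher and 11 lower in A375, where 68.9% of all probe sets were called. In WM2664 1 was higher and 7 lower than in SKMEL5, against 57.7%. All NR4A3 probe sets passed the filter through SKMEL5 alone, so in these counts they could only be lower or not called. With a filter of 9 arrays 12 calls were made over both comparisons.

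Levels were also compared between the times under DMSO. Between 24 h and 6 h of DMSO, 0 of 13 probe sets were called in A375, WM2664 or the mean over lines, where limma called 1.42%, 0.807% and 8.65% of all probe sets. At an unadjusted p under 0.05 in limma there were 1, 3 and 3. The share of all probe sets at that threshold was not counted, so these numbers cannot be set against the shares above. With shares this low and 2 arrays a group, the lack of calls does not show that these levels were stable. In SKMEL5 2 probe sets of NR4A3 were lower at 24 h, against 5.81% called among all, with -0.25 ± 0.05 for the brightest one and -0.63 ± 0.10 for 216979_at (adjusted p 0.0360 and 0.0166). The call of the brightest one ended without either 6 h DMSO array, at -0.244 and -0.252, or without 24 h replicate 2, at -0.215.

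Genes related to the family by function were drawn from 5 lists of 65 genes in all. Of the EGR partners, NAB2, an EGR-induced corepressor that binds EGR1 and limits its activity, rose by 0.90 ± 0.06 at 24 h and 0.66 ± 0.06 at 6 h in the mean over lines (adjusted p 1.71e-05 and 0.00012). NAB1, a related corepressor, rose by 0.40 ± 0.08 at 24 h (adjusted p 0.00439) and had 0.13 at 6 h (adjusted p 0.245), and EGR4 was too dim to be tested. NAB2 had 341 with A-485 in A375 at 24 h, against 144 and 159 with DMSO, and 464 with A-485 in SKMEL5 at 6 h, against 289 and 289. Of the 3 RXR receptors, with which NR4A1 and NR4A2 form heterodimers, RXRA fell, with -0.80 at 24 h and -0.63 at 6 h (adjusted p 0.000629 and 0.0028), as did RXRG, with -0.56 and -0.51 (adjusted p 0.00156 and 0.00335). RXRA had 115.2 with A-485 in SKMEL5 at 24 h, against 115.5 and 112.3 with DMSO, so its mean rests on A375 and WM2664, and its 24 h mean was -1.21 without the SKMEL5 A-485 array and -0.516 without that of A375. RXRG was below the floor on all A375 arrays. On the intensities as deposited the 6 h values were -0.341 for RXRA and -0.259 for RXRG and were not called (adjusted p 0.118 and 0.123). The third, RXRB, had 0.18 at 24 h (adjusted p 0.0318), a call that ended without scaling, with a floor of 16, under the replicate block and without any 1 of 6 arrays, and 0.08 at 6 h (adjusted p 0.303). The RXRG calls ended without the SKMEL5 A-485 array at 24 h, at -0.33, and without the WM2664 A-485 array at 6 h, at -0.24, and that of NAB1 ended without the 3 arrays that carried another line's transcripts, at 0.41 (adjusted p 0.0533).

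Of 14 factors tested that act on the promoters of immediate early genes, 9 rose and 0 fell at 24 h and 7 rose and 2 fell at 6 h in the mean over lines, against 38.8% and 30.7% of all probe sets called, and 48.1% and 38.2% in a fit with 1 probe set a gene. The list's median was 0.24 and 0.20, where all probe sets had 0.02. The 9 and 7 that rose were 5 and 3 without the 3 arrays that carried another line's transcripts, and 5 and 4 without the WM2664 A-485 array. At 24 h 3 rose on the intensities as deposited and 5 with no filter, where 17.5% and 19.6% of all probe sets were called. At 6 h 4 rose without the A375 A-485 array and 4 on the arrays of 6 h alone, against 28.2% and 31.7%. SRF, which binds CArG boxes, had 0.10 at 24 h, which was not called (adjusted p 0.548), and rose by 0.51 at 6 h (adjusted p 0.0146), a call that ended without the SKMEL5 A-485 array, at 0.34. Its coactivators MRTFA and MRTFB rose by 0.50 and 0.50 at 24 h and by 0.55 and 0.48 at 6 h, but the MRTFA calls (adjusted p 0.0301 and 0.0248) ended without the WM2664 A-485 array, at 0.43 and 0.48, among other arrays, and under the replicate block, at 0.427 and 0.48 (adjusted p 0.0749 and 0.0619). MEF2C, a MADS box factor of muscle and neurons, had -0.11 at 24 h, which was not called, and fell by 0.81 at 6 h (adjusted p 0.00466), a call that ended without the WM2664 A-485 array, at -0.45.

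Other immediate early genes did not share 1 direction. Of 28 tested, 14 rose and 9 fell at 24 h in the mean over lines, with a median of 0.23. At 6 h 12 rose and 10 fell, with a median of 0.16. Of all probe sets, 38.8% and 30.7% were called at 24 h and 6 h, and 48.1% and 38.2% in a fit with 1 probe set a gene. On the intensities as deposited 8 rose at 24 h and 6 fell at 6 h, where 17.5% and 29.3% of all probe sets were called. MYC, a growth-promoting transcription factor, fell, with -2.53 at 24 h and -3.44 at 6 h, as did KLF6, a zinc finger factor, with -0.997 and -1.80. CCN2 (CTGF), a secreted matrix protein, rose by 2.21 ± 0.13 and 1.70 ± 0.13, and FOS, the AP-1 subunit that shares SRF control with EGR1, rose by 1.32 ± 0.11 and 1.57 ± 0.11. At 24 h CCN2 had 1905 with A-485 in A375, against 1605 and 1360 with DMSO. In WM2664 it had 2456, against 216 and 175, and in SKMEL5 3040, against 511 and 492. Its 24 h mean ran from 1.48 to 3.13 with 1 array left out. These FOS sizes are not exact, since its DMSO arrays ran from 6.70 to 42.5 in A375 and from 8.61 to 37.6 in WM2664, below or near the floor. With A-485 it had 93.8 at 24 h and 160.6 at 6 h in A375 and 142.4 and 133.8 in WM2664, and all 4 differences were called. In SKMEL5, where the DMSO arrays ran from 565 to 674, the differences were 0.47 and 0.61 and were not called (adjusted p 0.114 and 0.0704).

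**Figure D4:**
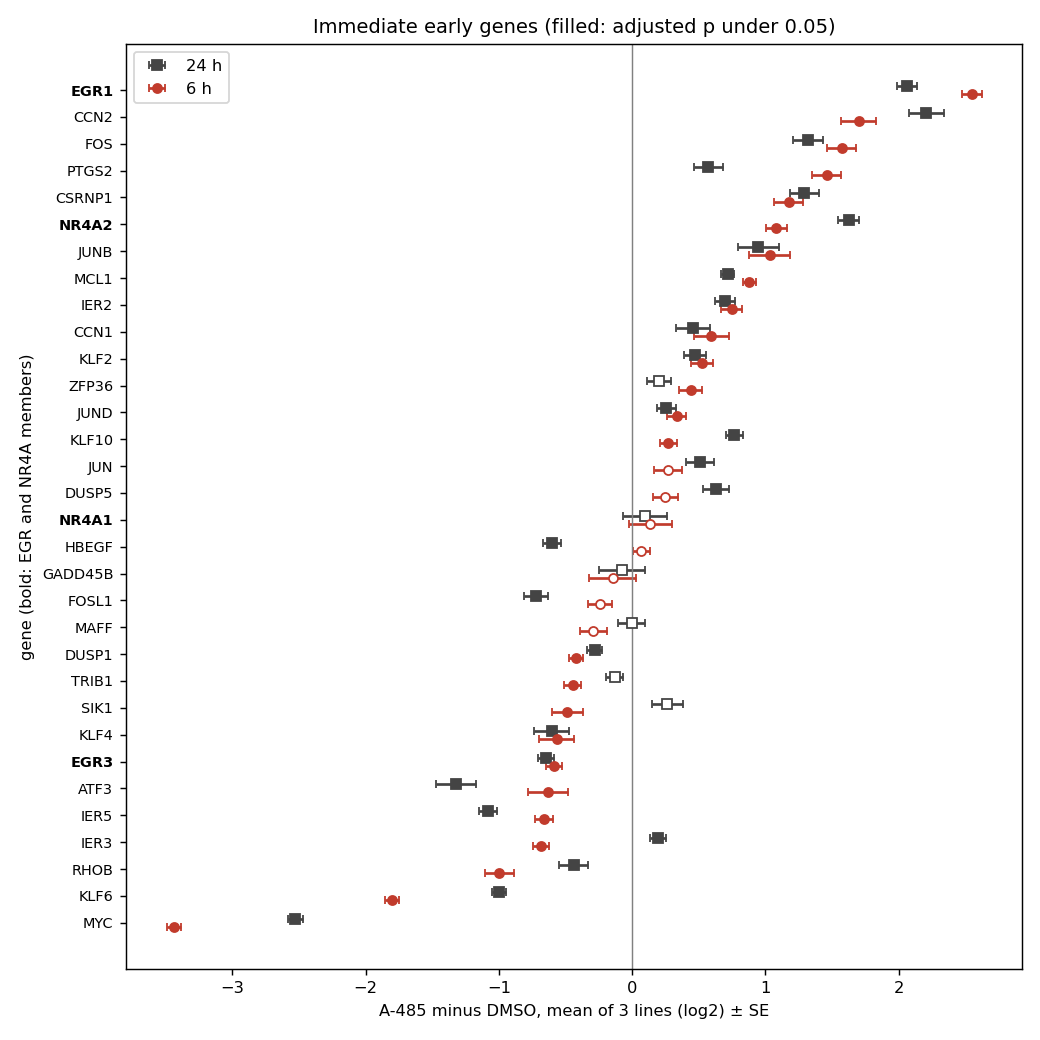
Mean A-485 minus DMSO difference over the 3 lines (log2, with SE bars) for 4 of the EGR and NR4A genes (bold) and 28 other immediate early genes, sorted by the 6 h value; squares are 24 h, circles 6 h, and filled symbols were called. EGR1 has the highest 6 h value, 2.55, and MYC the lowest, -3.44; NR4A3, measurable in 1 line, is not drawn.

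Transcripts known to follow ERK activity in melanoma were also counted. Of 12 tested, 2 rose and 6 fell at 24 h in the mean over lines, with a median of -0.30. At 6 h 0 rose and 8 fell, with a median of -0.71. Of all probe sets, 38.8% and 30.7% were called, and 48.1% and 38.2% in a fit with 1 probe set a gene. The 2 that rose at 24 h were the ERK phosphatase DUSP6, by 0.30, and the Ras pathway inhibitor SPRED1, by 0.48 (adjusted p 0.00179 and 0.000186), both named after their values were seen. On the intensities as deposited, or without the WM2664 A-485 array, 1 rose at 24 h, against 17.5% and 29.2% of all probe sets called. Without the A375 A-485 array 2 rose at 6 h, against 28.2%. In WM2664 at 24 h, 2 rose, 3 fell and the median was -0.02, where 25.3% of all probe sets were called. PLK2, a polo-like kinase, fell, with -1.42 at 24 h and -1.95 at 6 h. The ERK phosphatase DUSP4 fell, with -0.85 and -1.41, and PHLDA1, a pleckstrin homology-like protein, with -0.67 and -1.22. The receptor kinase inhibitor SPRY1 had -0.35 at 24 h, which was not called (adjusted p 0.078), and fell by 1.35 at 6 h.

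As a description over the 18 arrays, which share lines and treatments, the genes most like each member were found by Pearson's r. EGR1 ran most like ZNF786, WDR44 and ODF2L, with r of 0.925, 0.921 and 0.918. EGR3 ran most like SPP1, MOXD1 and PLPP3 (0.979, 0.978 and 0.977), and NR4A2 most like KYAT3, PCYOX1 and AP3M1 (0.974, 0.972 and 0.969). The nearest to NR4A1 were DUS1L, COMMD9 and TUB, at 0.977 each, and to NR4A3 SCARA5, SEPTIN4 and ZNF114, at 0.9995, 0.999 and 0.998.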

How the data were processed

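The 18 samples each had 1 Affymetrix HG-U133 Plus 2.0 array. Biotin-labelled cRNA was made with a 3' IVT kit, per the labels' protocols. The deposited table holds 1 linear intensity per probe set and array, and how the authors corrected and scaled it is not given in the sources used here. Of the deposited intensities, 19.4% to 22.9% of an array's values were below 0, and the 75th percentiles ran from 131.7 to 209.2, so that the arrays were on different scales. The number of arrays limits the precision.

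Intensities were quantile normalized on the linear scale, set to a floor of 32 and taken to log2, which compresses differences of dim genes and hides a shift shared by most genes. Probe sets above the floor on at least 3 arrays were tested, 30355 of 54613. Of all probe sets, 41091 had 1 gene symbol, 1801 had several and 11721 had none listed, and symbols were updated by Entrez identifier for 41037. A group-means model over 12 groups was fitted with limma 3.58.1 in R 4.3.3, with 22 contrasts, each adjusted by Benjamini-Hochberg over all probe sets tested. All 6 residual degrees of freedom came from DMSO pairs, and moderation by empirical Bayes added 1.824. A pair with both arrays at the floor added no spread. For probe sets at the floor in some lines, SE and p are therefore likely too small. The procedure was tested on simulated data.

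The members and gene lists were chosen with earlier results of these data known. Other genes were named as up to 4 called members of each list by size of the mean response at 6 h, and the 3 genes most like each member. Of genes with several probe sets, the brightest stood for the gene. Replicate numbers appear in the labels. Over 15 pairs of DMSO groups, the differences between replicate 1 and replicate 2 correlated at -0.049 to 0.041. Thus the numbers showed no effect shared by these groups. Whether an A-485 array was paired with a DMSO array of its own line and time could not be seen this way, and the main fit used no pairing. Replicate DMSO arrays correlated at 0.988 to 0.992 over probe sets. The alternatives tried were 75th percentile scaling, no scaling, floors of 16 and 64, no filter and a filter of 9 arrays, 1 probe set a gene, an intensity trend, the arrays of 1 time alone, a replicate block, each array left out, and the 3 arrays with another line's transcripts left out.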

Additional observations from a re-analysis of the deposited data

Results flagged for a closer look

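These differences between times or between lines were called by a test of the difference itself (a contrast of contrasts in limma). No group had 4 or more arrays, so no array was tested for standing apart from its group.

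Between times, the A375 response of EGR3 was lower at 24 h than at 6 h by -0.842 (adjusted p 0.0342) and the SKMEL5 response of NR4A3 by -0.683 (adjusted p 0.0033). The mean response over lines was lower at 24 h for EGR1, by -0.486 (adjusted p 0.0239), and higher for NR4A2, by 0.542 (adjusted p 0.0177).

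Between lines, the 24 h response of A375 minus the mean of the others was -0.638 for EGR1 (adjusted p 0.0312) and -1.07 for EGR3 (adjusted p 0.00111). WM2664 minus SKMEL5 was 1.14 for EGR1 at 24 h (adjusted p 0.00786), and for NR4A2 it was -1.91 at 24 h and -2.04 at 6 h (adjusted p 0.000848 and 0.00138). Each rests on 1 A-485 array per line and time. For NR4A3 only the SKMEL5 DMSO pairs gave spread, so its p is likely too small.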

How the results depend on the processing

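The counts of called probe sets were 41 for A-485 minus DMSO summed over lines and times, 19 for the means over lines, 10 for 24 h minus 6 h, 22 between lines, 19 for DMSO levels and 2 for DMSO times. The count for 24 h minus 6 h was 1 without scaling, 5 with a floor of 16, 6 with a filter of 9 arrays and 6 without the 3 arrays that carried another line's transcripts. The count between lines was 7 without scaling, and that for DMSO levels 12 with a filter of 9 arrays. Calls among all probe sets moved with the setting too. In the 24 h mean over lines the share was 38.8% in the main fit and 17.5% without scaling. It was 27.5% with a floor of 16 and 42.3% with a filter of 9 arrays. Shares for the other contrasts are not given here for these settings, so a changed count is not a result about these genes. The count for DMSO times was 0 without scaling, with a floor of 16 and with a filter of 9 arrays, and 1 with 75th percentile scaling, with an intensity trend, with the replicate block and without those 3 arrays. With 1 array left out it ran from 0 to 5.

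Without scaling the 6 h means of EGR3 and NR4A3 were -0.281 and -0.161 and lost their calls. Without those 3 arrays the 6 h mean of NR4A1 was 0.308 and was called. With 1 array left out the NR4A3 mean ran from -0.757 to 0 at 24 h and from -0.415 to 0 at 6 h, the EGR1 mean from 1.67 to 2.28 and from 2.25 to 2.75, the EGR3 mean from -0.943 to -0.291 and from -0.624 to -0.551, and the NR4A2 mean from 1.08 to 2.03 and from 0.553 to 1.57. With 1 array left out, the 6 h NR4A2 response of A375 minus the other lines ran from -1.14 to 0.895, turning positive without the SKMEL5 A-485 array, against -0.12 with all arrays. A line whose A-485 array was left out dropped from the mean or comparison at that time, so such values describe the remaining lines. The cause of the other changes was not tested.

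The replicate block ended the EGR3 time call in A375 (-0.842, adjusted p 0.051), the NR4A3 DMSO time call in SKMEL5 (-0.248, adjusted p 0.0596), both MRTFA calls (0.427 and 0.48) and that of RXRB at 24 h, and made the A375 NR4A1 level a call (-0.35, adjusted p 0.0156). Among single genes and list counts under the other settings, 1498 values kept direction and side of the threshold, 68 lost a call, 21 gained one and 15 counts moved by over 1.5 times. With 1 array left out these numbers were 2565, 42, 21 and 17. Dim signals near the floor limit NR4A1, NR4A3 outside SKMEL5 and NR4A2 in A375.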
